A study of Rattus norvegicus with 16 samples.

Results

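Crispld2, Fhod3, Ctnnal1, Tpd52l1, Srpx, Thbd, Tent5b, Lrrn3 and Arl15 are 9 rat genes of unlike function whose signal was far higher in cells treated for 48 h with a nonsteroidal androgen receptor agonist (NARA) than in vehicle. They were chosen by that 48 h difference and, for Srpx, Thbd, Tent5b, Lrrn3 and Arl15, also by how far the 48 h effect exceeded that at 4 h, so both contrasts are given for them as a description with no test. They are 9 of the 14217 genes that the annotation gives a probe set of their own. All probe sets annotated with exactly 1 of these symbols were taken, 13 of the 31042 non-control probe sets on the array. Of these 13, 12 averaged 300 or more in signal over the compared arrays and entered the fit of 20904 probe sets. For 3 of the 12, both of Crispld2 and that of Fhod3, only the NARA 48 h group reached that mean, so they entered through the group in which they were high.

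The cells were labelled as rat levator ani satellite cells at passage 5, the stem cells of a pelvic muscle that depends on androgens. All groups alike had charcoal-stripped serum in their medium during treatment. Vehicle was 0.2% DMSO, NARA was given at 10 nM, and both exposures lasted 4 h or 48 h. Each group held 4 samples with 1 Affymetrix array each, and the authors left out 3 arrays as outliers, namely replicate 1 of vehicle at 48 h and replicates 1 and 4 of NARA at 4 h. At 4 h the comparison therefore had 4 vehicle and 2 NARA arrays, and at 48 h it had 3 vehicle and 4 NARA arrays. The labels call the samples biological replicates but name no separate animals or cultures, so the spread may be technical.

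The androgen receptor is a transcription factor that is held inactive in the cytoplasm until a ligand binds, and then acts in the nucleus as a dimer on DNA elements made of inverted copies of a short hexamer. Genes with such elements can respond within hours, while others follow later through the products of the early ones. In the levator ani the receptor is known for keeping up muscle mass, and satellite cells are among the cells that carry it.

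Pairs of the 13 arrays had an r of 0.930 to 0.956 on the log2 scale across probe sets, and their median signals lay between 539 and 613. Of 10 satellite cell and myoblast markers, 8 had a probe set, Pax7 and Myf5 not being among them, and the median of their mean signals was 945. Of these 8, 7 reached a mean of 300, among them Myog at 1117 and Cdh15 at 1275, while Myod1, the gene of a factor that commits cells to muscle, was at 83.9. All 8 fibroblast markers also reached 300, with a median of 54058. So did 3 of 5 liver markers and 3 of 5 macrophage markers, with medians of 616 and 588. Reaching 300 therefore does not show that a cell type was present. At 48 h, 1 of the 7 satellite cell markers and 2 of the 8 fibroblast markers in the fit were lower in NARA in limma, and 0 were higher. Of all 11286 genes, 169 were lower and 193 higher. The part of these markers in the results was not tested.

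For 8 of the 9 genes the RefSeq promoter table (assembly GRCr8) held a window, and the 250 bases before the start were searched. The receptor's hexamer, AGAACA or TGTTCT on the other strand, was found in 1 of the 8 windows, that of Crispld2, and in 17.5% of all 33469 windows. The palindrome of 2 such hexamers was in 0 of the 8 and in 0.012% of all windows. The GC box (GGGCGG or CCGCCC) was in 6 of the 8 against 30.5% of all, the CCAAT box (CCAAT or ATTGG) in 4 of the 8 against 34.0%, and TATAAA or TTTATA in 1, Arl15, against 12.9%. None of these motifs overlap in the windows shown. The 6 windows with a GC box held 59.6% (Srpx) to 72.4% (Fhod3) G and C, where the median of all windows was 51.2%. The shares over all windows were not matched for this. A match is a string of letters and not a known binding site. Crispld2 is printed because it alone holds the hexamer, Ctnnal1, with 3 GC boxes, because it alone was higher on both NARA arrays at 4 h, and Tent5b because its 4 CCAAT boxes are the most of the 8. Capitals mark the hexamer, the GC box and the CCAAT box.

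Crispld2, GRCr8, chr19:64978706-64978955, plus strand: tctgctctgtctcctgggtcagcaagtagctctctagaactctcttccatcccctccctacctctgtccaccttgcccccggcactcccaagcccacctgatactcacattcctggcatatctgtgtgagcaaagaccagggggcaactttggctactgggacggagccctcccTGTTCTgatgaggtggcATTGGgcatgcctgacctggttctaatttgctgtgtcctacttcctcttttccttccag
Ctnnal1, GRCr8, chr5:76364638-76364887, minus strand: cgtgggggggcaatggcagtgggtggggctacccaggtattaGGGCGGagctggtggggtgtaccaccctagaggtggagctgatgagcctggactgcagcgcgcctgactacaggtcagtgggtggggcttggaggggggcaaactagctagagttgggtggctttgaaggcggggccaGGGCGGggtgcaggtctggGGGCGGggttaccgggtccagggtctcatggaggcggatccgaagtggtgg
Tent5b, GRCr8, chr5:150978988-150979237, plus strand: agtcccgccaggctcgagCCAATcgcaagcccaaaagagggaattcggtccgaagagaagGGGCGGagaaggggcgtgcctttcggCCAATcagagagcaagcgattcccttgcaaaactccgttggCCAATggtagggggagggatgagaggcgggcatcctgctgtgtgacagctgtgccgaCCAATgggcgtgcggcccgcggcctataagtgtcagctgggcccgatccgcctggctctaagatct

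The hexamer in the Crispld2 window begins 76 bases before the start. That start lies 17192 bases inside the outermost start of the Crispld2 gene model, and the start used for Ctnnal1 lies 11232 bases inside its own. Both windows therefore lie within the gene models, and the bases before the outermost starts were not searched. Whether these windows act as promoters was not tested. Which start the cells use cannot be read from these arrays.

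At 48 h the brightest probe set of each gene lay 2.11-fold (Arl15) to 7.76-fold (Crispld2) higher in NARA, with a median of 3.50-fold over the 9 genes. Fold changes are on the scale of log2(signal + 50), which understates the change of dim probe sets. By size of this change among 11286 genes, Crispld2 ranked 4, Fhod3 8, Ctnnal1 9, Tpd52l1 10, Lrrn3 15, Srpx 24, Tent5b 25, Thbd 47 and Arl15 84. Of the 12 tested probe sets, 10 were higher past the limma threshold (adjusted p of 0.05), where 1.36% of all probe sets were. Every NARA 48 h array lay above every vehicle 48 h array for 11 of the 12, against 7.19% of all probe sets. Both counts describe how the genes were chosen. The list is a choice and no cut in size: Itgb3, just above Arl15 at a log2 difference of 1.08 (SE 0.236), and Fam89a, just below it at 1.08 (SE 0.458), are not in it.

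**Figure D1:**
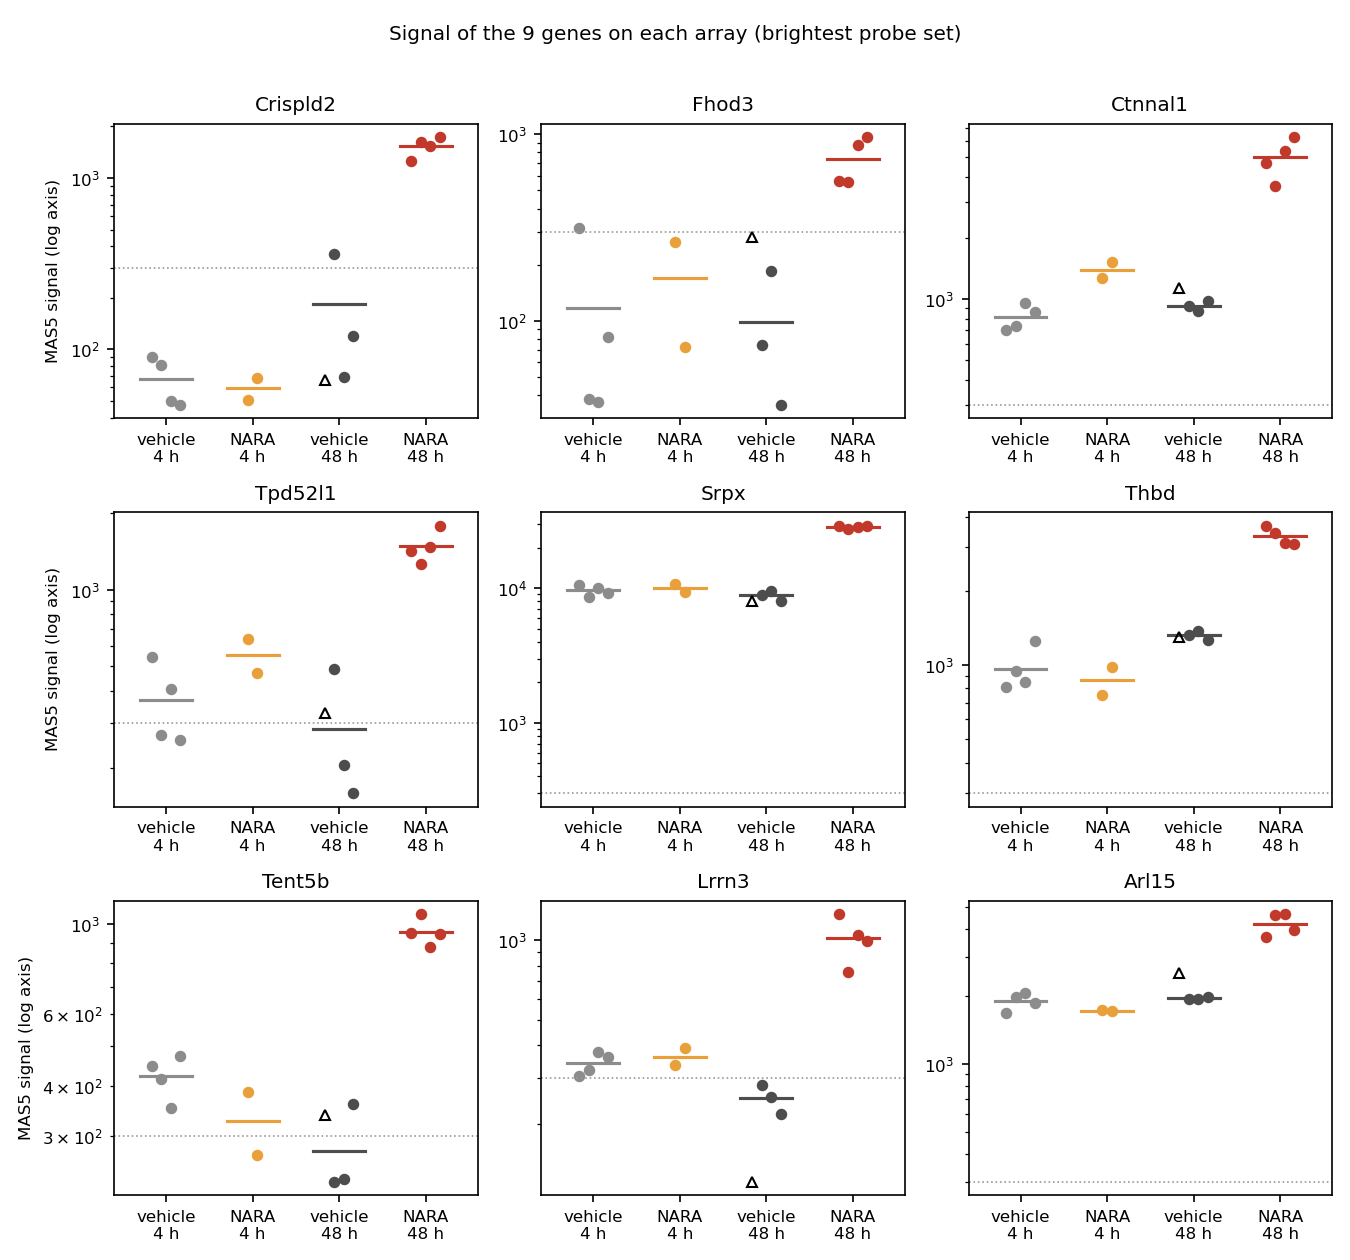
Signal of the brightest probe set of each of the 9 genes on every array (MAS5 signal, log axis), by group. Circles are the 13 arrays compared, bars are group means, open triangles are vehicle 48 h replicate 1, which the authors left out, and the dotted line is the signal minimum of 300. The NARA 48 h circles lie above all others in every panel, and the NARA 4 h circles stand clear of vehicle 4 h for Ctnnal1.

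The proteins that leave the cell or sit in its membrane are taken in order, the secreted ones before the receptors. Crispld2 encodes a secreted protein with CAP and LCCL domains, also called Lgl1, which was described in developing lung as a gene induced by glucocorticoids. Its brighter probe set, 1376457_at, gave 361, 69.4 and 120.5 in vehicle 48 h replicates 2, 3 and 4 and 1253, 1629, 1535 and 1729 in the 4 NARA 48 h arrays. In vehicle 4 h it gave 90.3, 81.4, 50.1 and 47.5, and in NARA 4 h replicates 2 and 3 it gave 50.4 and 68.4. The gene was near the bottom of the scale in all 6 arrays at 4 h, and all 4 NARA 48 h arrays lay far above the rest, of which vehicle 48 h replicate 2 was the highest. In log2 units, NARA minus vehicle was 2.96 (SE 0.332) at 48 h and -0.09 (SE 0.377) at 4 h.

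Srpx encodes a secreted sushi-repeat protein, found as a gene that is lost in cells transformed by v-src. Its signals in vehicle 48 h were 8929.6, 9525 and 8061, and in NARA 48 h they were 29144, 27346, 28450.3 and 29183. The 4 NARA arrays varied little, at 28531 ± 858 (SD, n = 4) against 8839 ± 736 (SD, n = 3) in vehicle. At 4 h the vehicle arrays gave 10631, 8636, 10101 and 9258 and the NARA arrays 10702 and 9399, so the groups overlapped. This gave a log2 difference of 1.69 (SE 0.106) at 48 h and 0.06 (SE 0.120) at 4 h.

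Thbd encodes thrombomodulin, the membrane receptor that binds thrombin and turns it toward the activation of protein C, an anticoagulant. Its brightest probe set, 1375951_at, gave 1318, 1367 and 1258 in vehicle 48 h and 3675, 3413, 3132 and 3098 in NARA 48 h. In vehicle 4 h it gave 810.1, 940.4, 851 and 1246, and in NARA 4 h it gave 749 and 982. The 4 h groups overlapped, and all 3 vehicle arrays at 48 h lay above all 4 at 4 h. The log2 difference was 1.31 (SE 0.150) at 48 h and -0.14 (SE 0.170) at 4 h. Thbd is best known from endothelium, whose markers were therefore looked at beside it. Of 9 endothelial markers with a probe set, 7 had a mean signal of at least 300 and 0 passed the limma threshold at 48 h. Their median was 359, below the 616 of the liver markers, so the level does not show endothelial cells. Their summed signal was 5302 to 6979 in vehicle 48 h and 6029 to 7170.1 in NARA 48 h. Vwf and Tie1 were the markers under 300, at mean signals of 185 and 183. The rest ran from 321 (Flt1) to 2601 (Egfl7), with Pecam1 at 406 and Kdr at 344. The part of endothelial cells in the Thbd difference was not tested. In bulk RNA a change in the number of cells that express a gene and a change per cell cannot be told apart.

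Lrrn3 encodes a transmembrane protein with leucine-rich repeats that is best known from neurons. Its signals were 282, 254 and 219.8 in vehicle 48 h and 1259, 761, 1049 and 998 in NARA 48 h. At 4 h they were 305, 321, 377 and 361 in vehicle and 335 and 389 in NARA. The 4 h groups overlapped, and the 3 vehicle 48 h arrays were the lowest of all 13. In log2 units, NARA minus vehicle was 1.81 (SE 0.155) at 48 h and 0.08 (SE 0.175) at 4 h. Of 4 neuronal and glial markers with a probe set, 2 had a mean signal of at least 300 and entered the fit, and 0 of these passed at 48 h. The summed signal of the 4 was 1733 to 2465 in vehicle 48 h and 1594 to 2083 in NARA 48 h. Their part in the Lrrn3 difference was not tested.

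Of the genes that act on the actin skeleton and at adhesion sites, Fhod3 encodes a formin, a protein that nucleates and bundles actin filaments and is needed for the sarcomeres of heart muscle. Its signals were 74.4, 186 and 35.5 in vehicle 48 h and 562, 555, 878 and 964 in NARA 48 h. At 4 h they were 313, 37.9, 36.7 and 82.1 in vehicle and 266 and 72.3 in NARA, so the NARA arrays lay inside the vehicle range. This gave a log2 difference of 2.50 (SE 0.528) at 48 h and 0.51 (SE 0.598) at 4 h, and the ratio of mean signals at 48 h was 7.50. It no longer passed the limma threshold at 48 h without vehicle 48 h replicate 2 or 4, where the log2 difference was 2.44 and 2.17. Fits with no signal minimum, with 1 added to the signal in place of 50, or with all 16 arrays did not call it either. Without any 1 of the 4 NARA 48 h arrays its mean signal was 258 to 292, under the minimum of 300, so it was not tested there, and a fit with no minimum gave log2 differences of 2.37 to 2.61.

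Ctnnal1 encodes alpha-catulin, a relative of the adhesion proteins alpha-catenin and vinculin. Its signals were 924, 869.7 and 980.5 in vehicle 48 h and 4692, 3633, 5390.2 and 6299 in NARA 48 h. At 4 h the vehicle arrays gave 701, 732, 956 and 865, and the NARA arrays gave 1273 and 1522. Here both NARA 4 h arrays stood above all 4 vehicle 4 h arrays, and below all NARA 48 h arrays. The log2 difference was 2.35 (SE 0.176) at 48 h and 0.75 (SE 0.200) at 4 h.

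Of the genes inside the cell, Tpd52l1 encodes D53, a coiled-coil protein of the D52 family, which has been tied to vesicle traffic. Its signals were 487, 205 and 159 in vehicle 48 h and 1424, 1257, 1465 and 1783 in NARA 48 h. At 4 h they were 545, 268, 407 and 258 in vehicle and 641 and 469 in NARA. The 4 h groups overlapped through vehicle replicate 1, and vehicle 48 h replicate 2 was again the highest of its group. In log2 units, NARA minus vehicle was 2.31 (SE 0.317) at 48 h and 0.57 (SE 0.360) at 4 h.

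Tent5b, formerly Fam46b, encodes a member of the TENT5 family of noncanonical poly(A) polymerases, enzymes that extend the tails of RNA. The brighter of its probe sets, 1384081_at, gave 232, 235 and 360.3 in vehicle 48 h and 949.9, 1059, 880.3 and 945 in NARA 48 h. At 4 h it gave 448, 415, 351 and 473 in vehicle and 385 and 270.2 in NARA. Of the NARA 4 h arrays, 1 lay inside the vehicle 4 h range and 1 below it. This gave a log2 difference of 1.65 (SE 0.163) at 48 h and -0.33 (SE 0.184) at 4 h.

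Arl15 encodes a small GTPase of the ARF-like family, which has been linked to adiponectin levels and to magnesium transport through CNNM proteins. Its signals were 1953, 1955 and 1980.0 in vehicle 48 h and 3677, 4592, 4654 and 3931 in NARA 48 h. At 4 h they were 1684, 1990.0, 2080.2 and 1876 in vehicle and 1736 and 1714 in NARA. Vehicle hardly changed between the times, and both NARA 4 h arrays lay inside the vehicle 4 h range. The log2 difference was 1.08 (SE 0.112) at 48 h and -0.14 (SE 0.127) at 4 h.

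The comparison at 4 h uses other arrays than the one at 48 h and asks which genes had already moved. The 9 genes split by sign, with 5 positive and 4 negative log2 differences, a median of 0.06 and a range of -0.33 to 0.75. For Srpx, Thbd, Tent5b, Lrrn3 and Arl15 the choice itself favoured low 4 h values. This split and the counts that follow therefore partly describe that choice. The other 4 genes ran from -0.09 to 0.75, with a median of 0.54. With limma, 0 of the 12 tested probe sets passed at 4 h, as did 0 of all 20904 (0%), of which 992 had an unadjusted p under 0.05. Both NARA arrays lay above all 4 vehicle arrays for 1 of the 12, Ctnnal1, where 7.32% of all probe sets showed this. Of the 4 genes with the greatest 48 h difference, which were not chosen through their 4 h values, Ctnnal1 and Tpd52l1 were bright enough at 4 h for the test to be read. Ctnnal1 had an adjusted p of 0.607 (limma, log2 difference 0.75, higher in 2 of 2 arrays), and Tpd52l1 had an adjusted p of 1.00 in limma. Crispld2 and Fhod3 had 4 h group means of 59.4 to 169, below the minimum of 300, and their 4 h values are given with no test. By size of the 4 h log2 difference, Ctnnal1 ranked 155, Tpd52l1 288, Fhod3 374 and Crispld2 7711 of 11286 genes. The Fhod3 value turned negative, to -0.18, without NARA 4 h replicate 2 and became 1.19 without NARA 4 h replicate 3. With 2 NARA arrays, a missed threshold does not show that a gene had not moved.

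**Figure D2:**
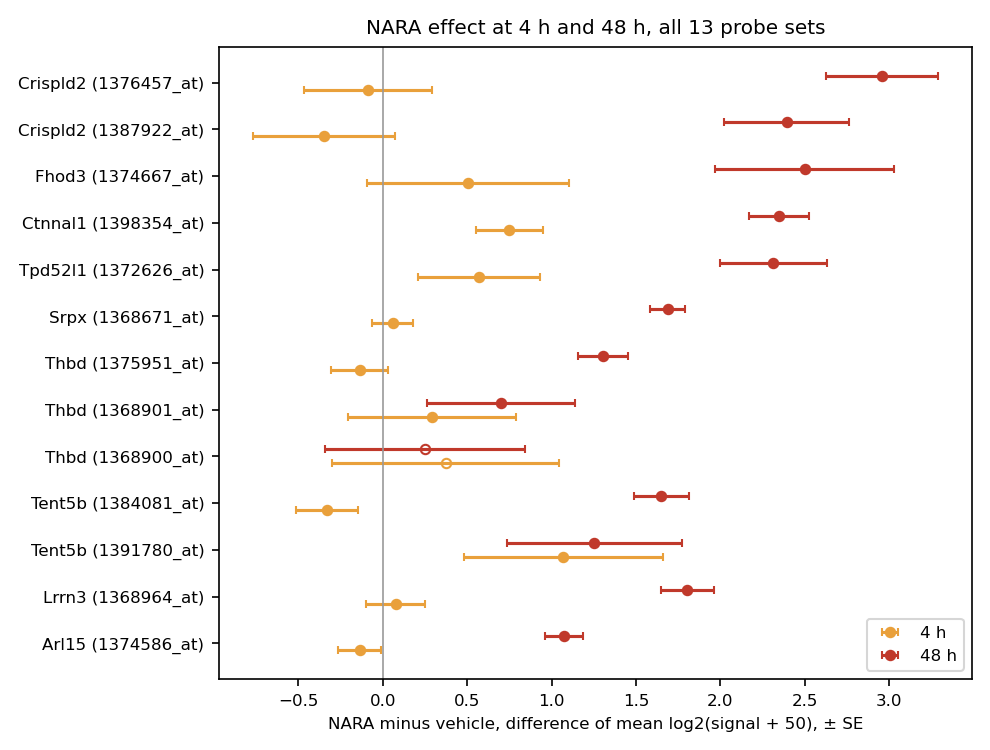
Difference of NARA and vehicle (mean log2(signal + 50), points, with limma standard errors as bars) at 4 h and 48 h for all 13 probe sets of the 9 genes. The open points mark the Thbd probe set under the signal minimum. At 4 h Ctnnal1 lies at 0.75 and the brightest probe sets of Crispld2, Thbd, Tent5b and Arl15 lie below 0.

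Taking the 4 h effect from the 48 h effect left the most for Crispld2, 3.04 log2 units (SE 0.503). It was 1.99 (SE 0.798) for Fhod3, 1.98 (SE 0.246) for Tent5b, 1.74 (SE 0.480) for Tpd52l1 and 1.73 (SE 0.234) for Lrrn3. It was 1.63 (SE 0.160) for Srpx, 1.60 (SE 0.267) for Ctnnal1, 1.44 (SE 0.226) for Thbd and 1.21 (SE 0.170) for Arl15. Of the 12 tested probe sets, 5 passed the limma threshold here, against 0.0574% of all probe sets that passed upward. These are the 5 genes listed for it, so the count describes the choice. The 4 genes with the wider standard errors and greater 48 h values were not among them.

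Vehicle itself moved between 4 h and 48 h for some of the genes, and these values share the vehicle 48 h arrays with the contrast that chose them. The log2 change in vehicle was 0.81 (SE 0.332) for Crispld2 and 0.45 (SE 0.150) for Thbd, upward. It was -0.55 (SE 0.163) for Tent5b, -0.40 (SE 0.317) for Tpd52l1 and -0.37 (SE 0.155) for Lrrn3. For Ctnnal1, Arl15, Fhod3 and Srpx it lay between -0.13 and 0.18. Within NARA the change from 4 h to 48 h was 3.85 (SE 0.377) for Crispld2, 1.89 (SE 0.170) for Thbd and 1.43 (SE 0.184) for Tent5b. It was 1.26 (SE 0.127) for Arl15, 1.34 (SE 0.360) for Tpd52l1 and 1.36 (SE 0.175) for Lrrn3. The change over time in NARA was thus greater than the 48 h gap to vehicle for Crispld2, Thbd and Arl15 and smaller for the other genes.

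Vehicle 48 h replicate 1, left out by the authors, played no part in choosing the genes. The NARA 48 h arrays it is set against did, so its values are a description. Its signal lay below all 4 of them for 11 of the 12 tested probe sets, where 23.6% of all probe sets showed this. The exception was 1391780_at of Tent5b, at 562, for which NARA 48 h minus this array was -0.17 on the log2 scale. On the brightest probe sets this array read 66.4 for Crispld2, 8072 for Srpx, 1289.6 for Thbd, 121 for Lrrn3, 327 for Tpd52l1 and 339 for Tent5b, and it lay above the other vehicle 48 h arrays for 3 of 9, at 281 for Fhod3, 1139 for Ctnnal1 and 2535 for Arl15. Set against this single array, NARA 48 h was higher by 3.76 log2 units for Crispld2, 2.62 for Lrrn3 and 2.06 for Ctnnal1. It was higher by 0.72 for Arl15 and 1.21 for Fhod3, the smallest gaps of the 9.

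Crispld2, Thbd and Tent5b have more than 1 probe set, and these agreed in different degree. For Crispld2, 1387922_at gave 94.6, 293 and 129 in vehicle 48 h and 695, 1092, 970.1 and 1559 in NARA 48 h. Its log2 difference was 2.39 (SE 0.372) at 48 h and -0.35 (SE 0.421) at 4 h, near that of 1376457_at, and the pair correlated at r = 0.88 over the 13 arrays. Within groups the deviations ran against each other (r = -0.50), and the vehicle 48 h array with the highest signal was replicate 2 on 1376457_at and replicate 3 on 1387922_at. Vehicle 48 h replicate 1 read 619 on 1387922_at, which is close to the lowest NARA array, and 66.4 on 1376457_at.

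For Thbd, 1368901_at gave 554, 444 and 536 in vehicle 48 h and 889, 1014, 999 and 601 in NARA 48 h. Its groups did not overlap, but the log2 difference of 0.70 (SE 0.437) was smaller than the 1.31 of 1375951_at. The third, 1368900_at, lay under the signal minimum with a mean of 215. It gave 617, 444, 124 and 49.3 in NARA 48 h and 103, 168 and 322 in vehicle 48 h, so its groups overlapped widely. Over the 13 arrays 1375951_at correlated with 1368901_at at r = 0.80 and with 1368900_at at r = 0.30.

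For Tent5b the probe sets differed most in their timing. The dimmer, 1391780_at, gave 357, 150.3 and 94.6 in vehicle 48 h and 674, 728, 233 and 495 in NARA 48 h, and these groups overlapped. At 4 h it gave 645 and 372 in NARA against 165, 104, 584 and 162 in vehicle. Its log2 difference was 1.25 (SE 0.519) at 48 h and 1.07 (SE 0.588) at 4 h, where 1384081_at had 1.65 and -0.33. The pair correlated at r = 0.40 over the 13 arrays. A lower signal at 4 h and a higher one at 48 h was thus seen on the brighter probe set alone.

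**Figure D3:**
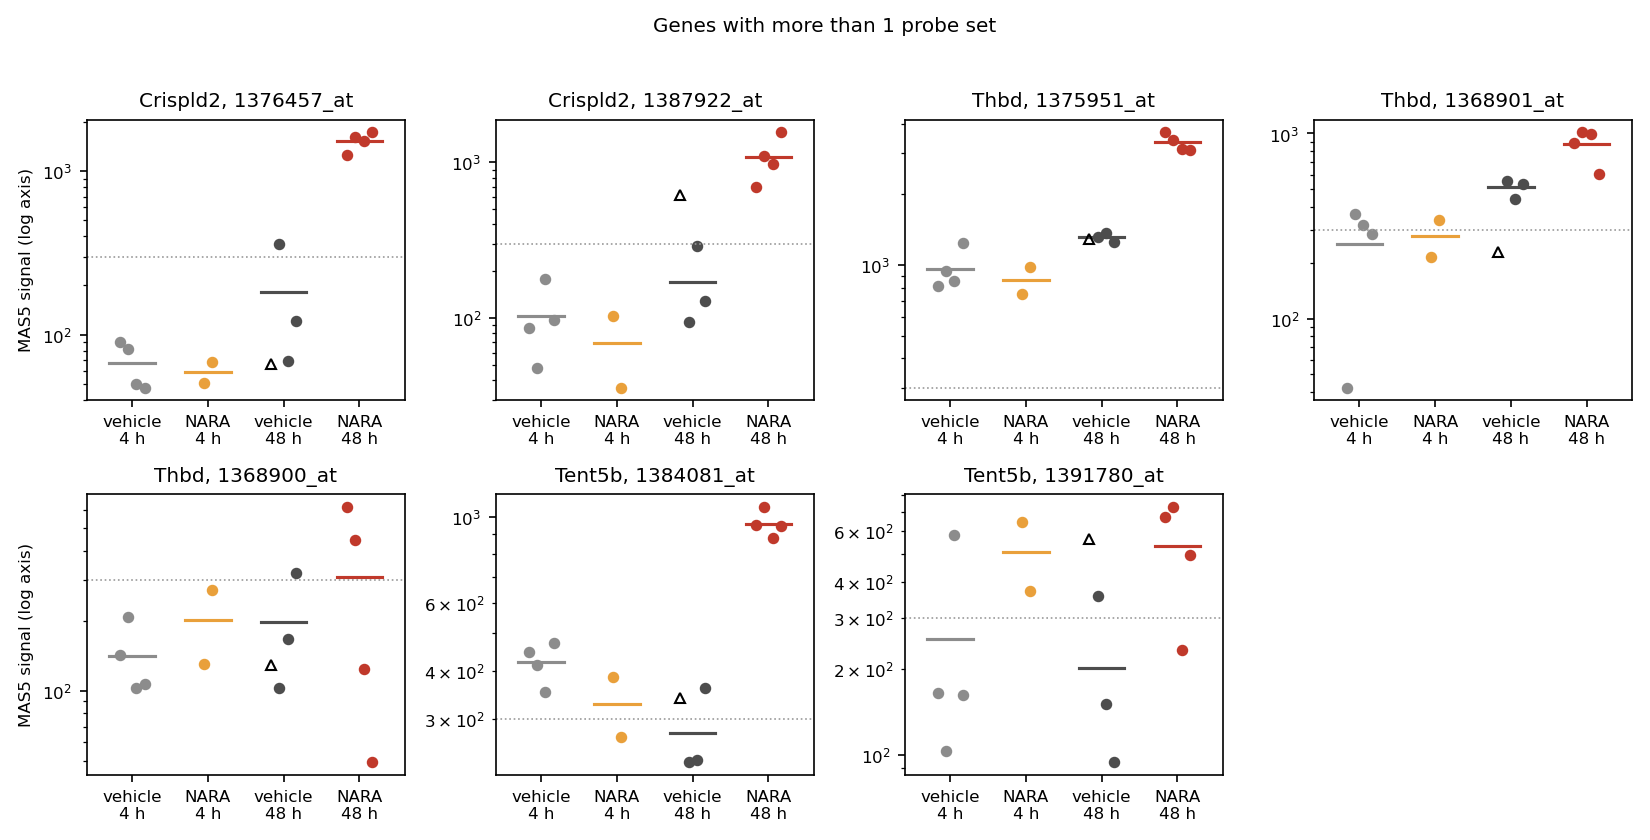
Signals of every probe set of Crispld2, Thbd and Tent5b on each array (MAS5 signal, log axis), drawn as in the plot of the 9 genes. The NARA 48 h circles are separate from vehicle 48 h for both Crispld2 probe sets, for 2 of the 3 of Thbd and for 1384081_at of Tent5b, and overlap for the others.

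Relatives and partners of the 9 genes were looked up in 9 lists to see whether families moved as a whole. Of 136 listed genes, 97 had a probe set and 79 were tested, by their brightest probe set. At 48 h limma called 1 higher and 1 lower, or 2.53%, where 3.21% of all 11286 genes were called in either direction. The median log2 difference over the 79 was -0.05, against -0.01 over all genes. The families therefore stood near the background, and the 2 calls were no greater a share than that of all genes. They were Srpx2 and Tent5a, a close relative each of Srpx and Tent5b, and are described below.

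Srpx2, the nearest relative of Srpx and like it a secreted sushi-repeat protein, fell where Srpx was higher. Its signals were 10933, 11758 and 14783 in vehicle 48 h and 3755, 5837, 5202 and 6000.0 in NARA 48 h, with no overlap. In log2 units, NARA minus vehicle was -1.27 (SE 0.171, limma adjusted p = 0.00206, lower in 4 of 4 arrays), or 2.41-fold lower. At 4 h it was -0.05 (SE 0.194, limma adjusted p = 1.00), with 10736 and 10886 in NARA and 9644 to 12253 in vehicle. In vehicle 48 h Srpx2 had a mean signal of 12491 ± 2027 (SD, n = 3). The call held without each array in turn and was lost with all 16 arrays (adjusted p = 1.00 in limma), where the log2 difference was -1.24. The other 4 tested genes of this list, among them Susd6 at -0.0035 and Pappa2 at -0.23, did not pass.

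Tent5a, the relative of Tent5b in the same polymerase family, rose 2.39-fold at 48 h. Its brightest probe set, 1394940_at, gave 8332, 5724 and 5680.3 in vehicle 48 h and 15725, 14823, 14912 and 16672 in NARA 48 h, a log2 difference of 1.26 (SE 0.132, limma adjusted p = 0.000427, higher in 4 of 4 arrays). At 4 h it gave 9049 and 9448 in NARA and 6082, 6206, 5800.1 and 5696 in vehicle. Both NARA 4 h arrays lay above all vehicle 4 h arrays, with a log2 difference of 0.63 (SE 0.150), which did not pass in limma (adjusted p = 0.444). The other probe sets of Tent5a had log2 differences of 1.76 (adjusted p = 0.0660) and 0.59 (adjusted p = 0.117) at 48 h in limma. With all 16 arrays the 48 h call of 1394940_at was lost (adjusted p = 0.229 in limma), at a log2 difference of 1.30. The remaining 9 tested genes of the list did not pass, with Papola, the main nuclear poly(A) polymerase, at 0.01 and the uridylyltransferase gene Tut4 at 0.27.

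No other list had a gene past the limma threshold at 48 h. Of 10 formins tested beside Fhod3, 4 had a positive difference, with Inf2 at -0.32 and Fmnl2 at 0.14. Among 7 tested genes of the list set beside Ctnnal1, which holds catenins and vinculin, Ctnnb1 lay at -0.03 and Ctnna1 at 0.11. Tpd52l2 and Tpd52, the 2 tested relatives of Tpd52l1, lay at -0.22 and -0.14. Of 3 tested CAP domain genes, Pi16 lay at 0.18 and Glipr1 at -0.35.

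The partners of Thbd in the thrombin and protein C system did not pass either. Of 15 tested, 7 had a positive difference and the median was -0.01, with Anxa5 at -0.06 and Serpine2 at 0.17. Procr, the receptor that presents protein C to the thrombin and thrombomodulin complex, lay at -0.01 (SE 0.229), and F2r, the main thrombin receptor, at -0.14 (SE 0.128). F3, the tissue factor that starts coagulation, lay at -0.23 (SE 0.101), and Klf2, a transcription factor known to induce Thbd in endothelium, at -0.26 (SE 0.115). Of 10 leucine-rich repeat membrane proteins set beside Lrrn3, 5 had a positive difference and the median was 0.007. The brightest of them, Lrig1 and Islr, lay at -0.43 and -0.13. Of 17 tested ARF and ARF-like GTPase genes and CNNM genes set beside Arl15, 8 had a positive difference and the median was -0.02. The brightest of them, Arf1 and Arf4, lay at 0.21 and 0.29.

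**Figure D4:**
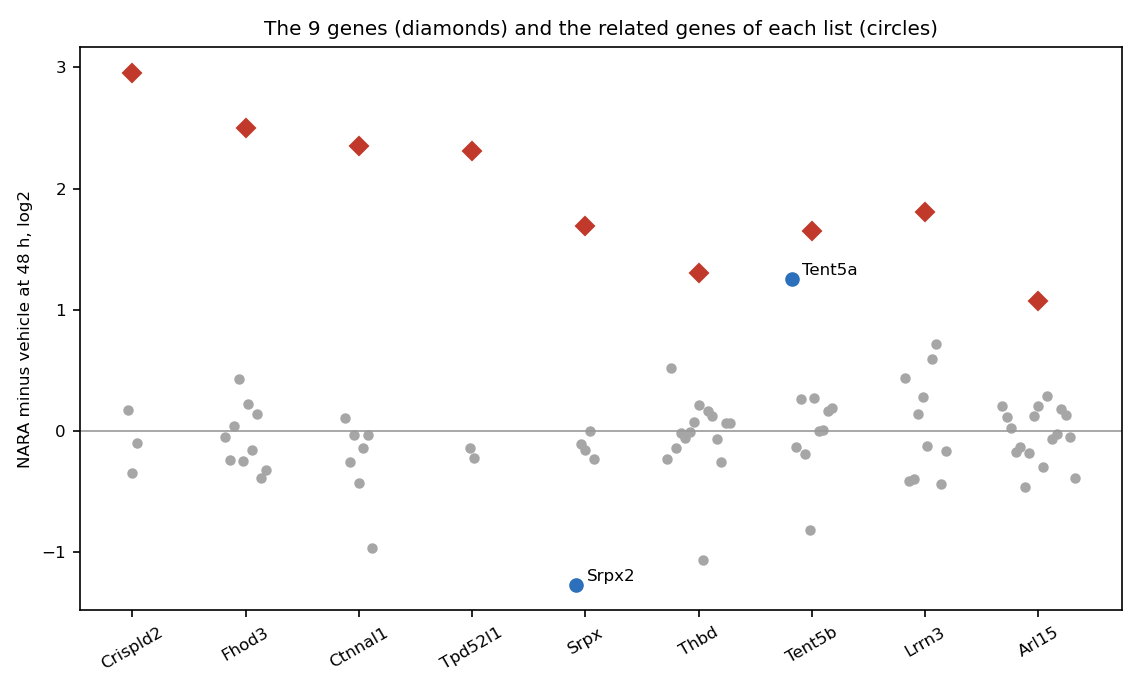
NARA minus vehicle at 48 h (log2) for the brightest probe set of each of the 9 genes (diamonds) and of the tested genes in the list set beside it (circles). Blue circles passed the limma threshold, Srpx2 at -1.27 and Tent5a at 1.26, and grey circles did not.

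The 9 genes resembled each other over the 13 arrays, with r between 0.73 and 0.96 for the 36 pairs and a median of 0.89, which the shared height of the NARA 48 h group sets. After each group's mean was taken away, the median was -0.08 and 25 of the 36 pairs were negative. The pair of Fhod3 and Srpx was the highest then, at 0.78. These are descriptions over the same 13 arrays.

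The genes of most similar pattern, up to 2 for each of the 9, were taken by Pearson's r over the same 13 arrays, where the NARA 48 h group again weighs most. Ctnnal1 was close to the sulfotransferase gene Sult1a1 (r = 0.98). Srpx was closest to Lmo4, a LIM domain transcription cofactor (0.98), and the collagen gene Col11a1 (0.98), and Lrrn3 to Lmo4 (0.95) and Nucb2 (0.95). Tpd52l1 was closest to Erp29, a protein of the endoplasmic reticulum (0.94), and to Tent5a (0.94). Tent5b was closest to Slc5a7, the choline transporter gene (0.96), and Thbs4 (0.94). Crispld2 and Arl15 shared Nnt, the mitochondrial transhydrogenase gene (0.96 for each), and Crispld2 and Thbd shared Gstm5, a glutathione transferase gene (0.96 for each). Fhod3 was closest to Gpt2 (0.94) and Mydgf (0.93), Thbd also to Cd55 (0.96) and Arl15 also to the sodium and calcium exchanger gene Slc8a1 (0.96). Over the 9 arrays outside NARA 48 h these values ran from -0.10, for Arl15 and Nnt, to 0.83, for Tent5b and Thbs4.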

How the data were processed

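RNA of 16 samples was measured on Affymetrix Rat Genome arrays. Each value is an intensity deposited by the authors, a MAS5 signal scaled to a trimmed mean of 1500 per the series' design text, and the software version is not given in the sources used here. Of 31099 probe sets, 57 controls were set aside, and probe sets were named by the platform annotation. Values of log2(signal + 50) on 13 arrays, for the 20904 probe sets that averaged 300 or more, were fitted as 4 group means with limma 3.58.1 in R 4.3.3 (lmFit and eBayes, 9 residual and 2.4 prior degrees of freedom). Two-sided p-values were adjusted by Benjamini-Hochberg over all of them. SE and SD are from limma and over arrays. Standard errors of the probe set under the minimum come from a fit without one. The brightest tested probe set stood for a gene. Genes named besides the 9 were the called members and up to 2 others by signal of each list, 4 more partners of Thbd (Procr, F2r, F3 and Klf2) and the cell type markers, chosen after their values were seen, and the 2 of greatest r, of which 1 is not reported here. The 9 genes and the lists were chosen with earlier results of these data known. The code of the fit was run on simulated signals with independent noise and a lower signal minimum. That run is a check of the code and does not bear on the results. The number of arrays limits the precision of every value.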

Additional observations from a re-analysis of the deposited data

Results flagged for a closer look

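In 26 groups of 4 arrays, the array farthest from the rest was compared with Dixon's critical value at the 95% level, which chance passes in about 1 group in 20. It was passed by 1 array, vehicle 4 h replicate 1 on the Thbd probe set 1368901_at, with a signal of 42.4 beside 286 to 367 in the others.

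The 3 arrays left out by the authors enter no comparison, and 16 of their signals were at least 300 and above the kept vehicle arrays of the same time. Vehicle 48 h replicate 1 had 619 for Crispld2 (1387922_at), 1139 for Ctnnal1, 562 for Tent5b (1391780_at) and 2535 for Arl15. NARA 4 h replicate 1 had 870.3 and 508 for the Crispld2 probe sets 1376457_at and 1387922_at, 371 for Fhod3 and 1227 for Ctnnal1. It had 627 and 345 for the Thbd probe sets 1368901_at and 1368900_at. NARA 4 h replicate 4 had 811 for Crispld2 (1387922_at), 340.4 for Fhod3, 1793 for Ctnnal1, 430.1 for Thbd (1368901_at), 519 for Tent5b (1384081_at) and 478 for Lrrn3. This rule lists only signals above vehicle, and others of these arrays lay below it. Srpx read 1152 and 1621 in NARA 4 h replicates 1 and 4, where vehicle 4 h gave 8636 to 10631. Thbd (1375951_at) read 263 in NARA 4 h replicate 4, where vehicle 4 h gave 810 to 1246. The signals of these outlier arrays are a description, and whether NARA had a part in them was not tested.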

How the results depend on the processing

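All 16 arrays gave 6 called probe sets of the 9 genes at 48 h in place of 10, with 36 called over the array in place of 586, 1 at 4 h in place of 0, 0 for the difference of effects in place of 26, and 0 relatives in place of 2. A minimum of 1000 left 4 probe sets of the 9 genes in the fit, with 4 called, and 1069 over the array, 2 at 4 h, 93 for the difference and 5 relatives. A trended and robust prior gave 1098, 9 at 4 h, 126 and 5 relatives. Only the groups compared gave 218 at 48 h and 3 at 4 h. No minimum gave 355 at 48 h and 11 for the difference, an offset of 200 gave 46, median scaling 16, and vehicle 48 h replicate 1 put back 61. Leaving out each array gave 310 to 528 at 48 h, 0 to 19 at 4 h, 1 to 36 for the difference and 2 to 4 relatives. The lowest at 48 h were without vehicle 48 h replicates 3 (310) and 2 (321). The highest at 4 h were without NARA 4 h replicate 3 (19) and 2 (11), where the lone NARA array is assumed to vary like the other groups. For the difference the lowest were 1 and 17 on dropping vehicle 48 h replicates 3 and 2, 5 and 8 on dropping NARA 4 h replicates 3 and 2, and 16 on dropping replicate 4 of NARA 48 h. The 4 relatives came on dropping replicate 1 of NARA 48 h. The cause of these shifts was not tested. With the replicate block the counts were 312 at 48 h, 0 at 4 h, 0 for the difference and 9 probe sets of the 9 genes. Fhod3 was not called there, nor with no minimum, an offset of 1 or all 16 arrays. Deviations from group means in arrays of the same number correlated at r between -0.04 and 0.04. This shows no pairing by number, but groups of 2 to 4 arrays cannot exclude one. At 48 h the log2 differences of the 9 brightest probe sets were positive in each setting in which the probe set was tested (not Fhod3 without any 1 NARA 48 h array, nor Crispld2, Fhod3, Tpd52l1, Tent5b and Lrrn3 at a minimum of 1000), from 0.99 (Arl15, all 16 arrays) to 3.47 (Crispld2, without vehicle 48 h replicate 2). At 4 h all 16 arrays, with the outlier replicates 1 and 4 of NARA put back, turned Crispld2 to 0.96 and Srpx to -1.36. Lrrn3 became -0.02 without NARA 4 h replicate 3 and Thbd 0.05 without NARA 4 h replicate 2. The probe sets under 300 in most arrays have the least certain size, with Fhod3 at 1.66 to 3.16 for offsets of 200 and 1.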
